A study of Mus musculus with 48 samples.

Results

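The Ms4a genes encode tetraspan membrane proteins, and 8 of the 54735 genes in the count files were examined here: Ms4a4a, Ms4a4b, Ms4a4c, Ms4a6b, Ms4a6c, Ms4a6d, Ms4a7, and Ms4a8a. They were taken by name, leaving out Ms4a1 and Ms4a2, which mark B cells and mast cells or basophils, and the other 11 Ms4a genes of the files, these among them, were kept for comparison. RNA was sequenced from monocytes (Ly6Glo CD11bhi F4/80-), pre-red pulp macrophages (pre-RPMs, Ly6Glo CD11bhi F4/80lo), and red pulp macrophages (RPMs, Ly6Glo CD11blo/- F4/80hi) sorted from the spleens of male Balb/c mice aged 10 weeks. Each of these 3 cell types was taken from 4 wild-type (WT) mice and from 4 mice labelled IL1RL1-/-, which are said to lack IL1RL1, the receptor of the cytokine IL-33, so that there were 24 libraries, each from a single mouse and with no further treatment. The mouse number in the labels ties the 3 libraries of an animal together. The study asked how IL1RL1 signaling bears on the path from monocytes through pre-RPMs to RPMs, the splenic macrophages that clear aged red blood cells.

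Proteins of this family span the membrane and often sit beside a signaling receptor and alter its signal or its traffic. CD20, the product of Ms4a1, and the beta chain of the high-affinity IgE receptor, the product of Ms4a2, are the best known of them. In the macrophage lineage, Ms4a4a is known as a surface partner of dectin-1 (Clec7a), and Ms4a4b is known from T and NK cells, where it associates with the receptor GITR (Tnfrsf18).

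The members lie together on chromosome 19 of GRCm38, in a stretch of Ms4a genes from 10962293 to 11640851. From the centromeric side, Ms4a8a (11067471 to 11081102, minus strand) stands 239936 bases before the others. Ms4a7 (11321039 to 11336146, minus strand), Ms4a4a (11375523 to 11392790, plus strand), Ms4a4c (11404770 to 11427246, plus strand), Ms4a4b (11443553 to 11463549, plus strand), Ms4a6c (11469366 to 11482192, plus strand), Ms4a6b (11516512 to 11531256, plus strand), and Ms4a6d (11586604 to 11604849, minus strand) then follow within 283811 bases. Of the 36 genes listed between the ends of the stretch, 17 are not Ms4a genes. Several members are close relatives. Coding sequences of Ms4a4b and Ms4a4c were identical at 622 of 678 aligned bases (91.7%), those of Ms4a6b and Ms4a6c at 87.5%, and those of Ms4a6b and Ms4a6d at 81.9%, whereas Ms4a7 reached at most 65.4% with any other member.

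The 250 bases before the RefSeq start sites are shown for the 2 most similar pairs and for Ms4a7. These windows set side by side genes that moved together, genes that moved apart, and the member with its lowest mean in monocytes, described below. They are read 5′ to 3′ on the strand of the gene in GRCm38.p6, at chr19:11518309-11518558 (Ms4a6b, plus), chr19:11469118-11469367 (Ms4a6c, plus), chr19:11407411-11407660 (Ms4a4c, plus), chr19:11443308-11443557 (Ms4a4b, plus), and chr19:11336147-11336396 (Ms4a7, minus). Capitals mark AGGAAGT, the sequence bound by the macrophage factor PU.1, or its reverse complement in Ms4a6b and Ms4a6c. They also mark runs of at least 15 bases that Ms4a4b and Ms4a4c have in common.
Ms4a6b: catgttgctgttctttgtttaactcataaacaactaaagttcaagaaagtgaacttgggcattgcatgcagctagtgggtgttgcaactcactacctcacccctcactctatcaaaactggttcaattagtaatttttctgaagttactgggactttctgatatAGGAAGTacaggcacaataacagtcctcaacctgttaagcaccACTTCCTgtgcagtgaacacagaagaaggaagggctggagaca
Ms4a6c: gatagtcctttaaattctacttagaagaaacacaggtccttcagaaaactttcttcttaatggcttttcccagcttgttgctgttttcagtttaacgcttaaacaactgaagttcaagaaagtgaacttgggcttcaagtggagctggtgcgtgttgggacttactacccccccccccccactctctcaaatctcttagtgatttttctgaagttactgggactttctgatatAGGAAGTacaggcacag
Ms4a4c: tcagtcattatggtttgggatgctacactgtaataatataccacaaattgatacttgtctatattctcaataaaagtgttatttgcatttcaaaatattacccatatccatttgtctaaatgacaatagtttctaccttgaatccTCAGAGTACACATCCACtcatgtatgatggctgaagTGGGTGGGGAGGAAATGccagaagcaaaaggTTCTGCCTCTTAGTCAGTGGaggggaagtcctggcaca
Ms4a4b: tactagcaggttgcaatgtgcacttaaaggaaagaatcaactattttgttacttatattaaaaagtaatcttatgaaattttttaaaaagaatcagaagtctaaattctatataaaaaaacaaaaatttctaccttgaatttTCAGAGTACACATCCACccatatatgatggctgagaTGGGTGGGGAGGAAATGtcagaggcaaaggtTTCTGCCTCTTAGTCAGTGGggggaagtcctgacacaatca
Ms4a7: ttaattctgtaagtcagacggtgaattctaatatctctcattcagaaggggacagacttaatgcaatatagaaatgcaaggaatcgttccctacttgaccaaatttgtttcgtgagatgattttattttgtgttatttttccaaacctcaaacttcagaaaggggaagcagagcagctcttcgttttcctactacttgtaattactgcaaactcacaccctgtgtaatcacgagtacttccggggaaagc

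The windows of Ms4a6b and Ms4a6c were identical at 149 of 175 aligned bases (85.1%), and those of Ms4a4b and Ms4a4c at 181 of 240 (75.4%), with 54 bases of each in shared runs. RefSeq windows were matched for 7 of the 8 members. AGGAAGT, searched on both strands, was found in 2 of these 7 windows (Ms4a6b, at 86 and 43 bases before the start, and Ms4a6c, at 17) and in 7.69% of the 32851 RefSeq windows of the same length. TGANTCA (AP-1) was found in 1 of the 7 (Ms4a8a) and in 6.75% of all windows. The interferon response motif, TTGCNNAA (C/EBP), AGATAA (the motif of erythroid and mast cell factors), and the E-box CACGTG were found in 0 of the 7 and in 2.98%, 9.56%, 9.99%, and 6.02% of all windows. The matches did not overlap, and a match describes the sequence only.

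The libraries held 3562367 to 6559454 counts (median 4728765). Values are given as CPM, counts scaled to a common library size with TMM factors, and 3 counts, treated as not told apart from 0, correspond to 0.449 to 0.893 CPM. The RPM marker Spic was between 273 and 433 CPM in RPMs and at most 16.2 elsewhere, and the monocyte marker Ly6c2 was between 35.7 and 79.5 in monocytes and pre-RPMs and at most 4.48 in RPMs. All 6 NK cell markers were also found, and their sum, which was 474 to 1784 CPM in monocyte libraries, did not exceed 133 in pre-RPMs or 40.3 in RPMs. Il1rl1, the targeted gene, was between 12.5 and 15.3 CPM in monocytes labelled IL1RL1-/- and between 1.95 and 4.28 in WT monocytes. In pre-RPMs it was also higher in labelled libraries, between 11.8 and 12.9 CPM against 3.19 to 5.71 in WT. In RPMs the range was lower in labelled libraries, 0.224 to 1.28 CPM against 1.06 to 3.00, but the groups overlapped and the labelled counts were only 1, 7, 3, and 6. The exons that these reads came from were not analysed here, and directions between genotypes below follow the labels.

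Of the 8 members, 6 had the same order of group means in both genotypes, with pre-RPMs highest, monocytes between, and RPMs lowest. These were Ms4a4a, Ms4a4c, Ms4a6b, Ms4a6c, Ms4a6d, and Ms4a8a. Ms4a4b, in contrast, had its highest mean in monocytes, and Ms4a7 its lowest in monocytes and its highest in RPMs. In bulk RNA, fewer cells of a type and less RNA per cell cannot be told apart.

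**Figure D1:**
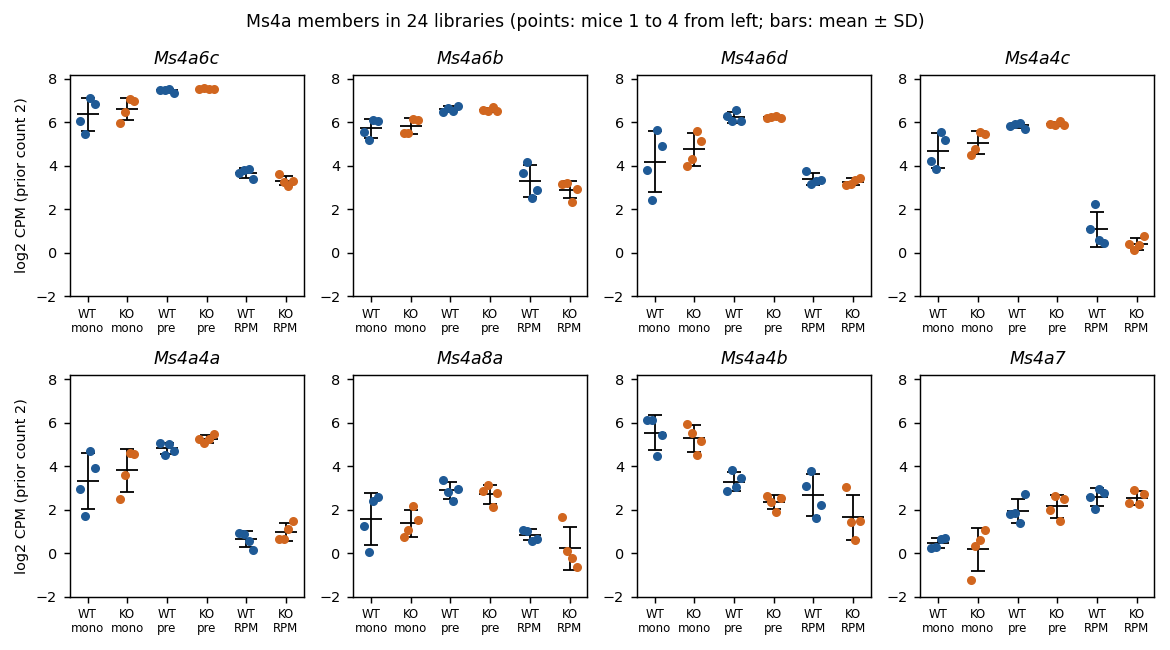
Level of each member (log2 CPM, prior count 2) in each of the 24 libraries, by group; points are mice 1 to 4 from left to right, bars are the mean ± SD (n = 4), mono and pre stand for monocytes and pre-RPMs, and KO (orange) for libraries labelled IL1RL1-/-. For 6 members, pre-RPMs are the highest and RPMs the lowest groups on average, whereas Ms4a4b is highest in monocytes and Ms4a7 in RPMs.

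Per kilobase of exon, which allows genes to be compared, Ms4a6c was the most abundant member in pre-RPMs, with 86.6 ± 4.56 RPKM in WT mice (SD, n = 4). Ms4a6d (43.6 ± 7.96), Ms4a4a (33.7 ± 5.92), and Ms4a4c (33.0 ± 2.63) followed, and their ranges over the 4 WT libraries overlapped from each to the next. Ms4a6b (21.7 ± 2.02 RPKM), Ms4a8a (3.99 ± 1.13), Ms4a4b (1.84 ± 0.584), and Ms4a7 (0.818 ± 0.393) came next, and only the last 2 of these overlapped. In WT monocytes, Ms4a6c (44.4 ± 21.6 RPKM), Ms4a4c (16.3 ± 8.66), Ms4a4a (15.01 ± 11.7), Ms4a6d (14.1 ± 11.4), Ms4a6b (12.1 ± 3.58), and Ms4a4b (9.68 ± 4.44) overlapped from each to the next. In WT RPMs, Ms4a6c (6.04 ± 0.865 RPKM) and Ms4a6d (5.90 ± 1.22) overlapped and lay above the other 6 members, which were between 0.772 and 2.34 on average. The length used is that of all annotated exons, 5274 bases for Ms4a4b, 4485 for Ms4a6b, and 4453 for Ms4a7 but 836 for Ms4a4a, retained introns included, which lowers the RPKM of the former.

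From pre-RPMs to RPMs, 6 of the 8 members fell in WT mice and 0 rose. Of the 11239 genes tested there, 24.7% were called, 10.7% lower and 14.0% higher in RPMs. In libraries labelled IL1RL1-/-, 6 of 8 members fell and 0 rose, where 26.0% of 11437 genes were called, 11.5% lower and 14.5% higher. Calls between cell types needed a log2 fold change beyond 1 in either direction together with an edgeR p, adjusted across every gene tested, of less than 0.01. The median log2 fold change of the 8 members was −3.07 in WT and −3.40 in IL1RL1-/- labelled libraries, with −0.0012 and −0.0018 over all genes tested. Both genotypes called the same 6 members.

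Ms4a6c, with the highest counts of the family, was at 182, 181, 183, and 164 CPM in pre-RPMs of WT mice 1, 2, 3, and 4 and at 12.3, 13.4, 13.9, and 9.93 in their RPMs. In libraries labelled IL1RL1-/-, it was at 183, 190.1, 186, and 185 CPM in pre-RPMs and at 11.9, 9.15, 8.11, and 9.37 in RPMs. The pre-RPM and RPM libraries of a genotype were far from overlapping, and the log2 fold changes were −3.88 (SE 0.13, adjusted p = 9.70e-11 by edgeR) and −4.33 (SE 0.12, adjusted p = 1.97e-13). Ms4a6b, next to it on the chromosome, was between 88.9 and 108 CPM in WT pre-RPMs and between 5.34 and 17.5 in WT RPMs, and its log2 fold changes were −3.22 (SE 0.25) and −3.74 (SE 0.14). Ms4a6d, known for an association with the receptor Vsig4 in macrophages, had the smallest fall of the Ms4a6 genes, a difference that was not tested, with 65.4 to 94.6 CPM in WT pre-RPMs and 8.55 to 13.3 in WT RPMs and log2 fold changes of −2.92 (SE 0.17) and −3.06 (SE 0.11).

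The Ms4a4 genes of the same pattern, Ms4a4c and Ms4a4a, were near the floor in RPMs. Ms4a4c was at 56.3, 59.3, 63.0, and 52.1 CPM in WT pre-RPMs and at 1.69, 4.27, 1.07, and 0.923 in WT RPMs, a log2 fold change of −4.82 (SE 0.26, adjusted p = 2.48e-09 by edgeR). In libraries labelled IL1RL1-/-, it was at 61.0, 59.0, 66.7, and 57.6 CPM in pre-RPMs and at 0.897, 0.654, 0.877, and 1.28 in RPMs, a log2 fold change of −6.08 (SE 0.16, adjusted p = 1.93e-13), the largest of any member in the comparisons made. The WT RPM library of mouse 2 was the highest of its group, and without it the WT value was −5.54. Ms4a4a was at 32.8, 22.6, 31.9, and 25.5 CPM in WT pre-RPMs and at 1.48, 1.42, 1.07, and 0.693 in WT RPMs, where its counts were 7, 7, 4, and 3, and its log2 fold changes were −4.59 (SE 0.24) in WT and −4.64 (SE 0.20) in IL1RL1-/- labelled libraries. Ms4a8a, a gene known from alternatively activated macrophages, was scarce throughout, with 4.90 to 9.77 CPM in WT pre-RPMs and 1.07 to 1.69 in WT RPMs, and its log2 fold changes were −2.37 (SE 0.31) and −2.77 (SE 0.47). The latter was −3.81 without the IL1RL1-/- labelled RPM library of mouse 1, whose 2.69 CPM stood above 0.654, 0.439, and 0.213 in the rest of its group.

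Ms4a7 and Ms4a4b were not called in this step. Ms4a7, which is known from mature tissue macrophages, was at 3.02, 3.15, 2.21, and 6.19 CPM in WT pre-RPMs and at 5.503, 3.66, 7.21, and 6.46 in WT RPMs, and these groups overlapped, although RPMs were higher in 4 of 4 mice (log2 fold change 0.58, 95% interval −0.06 to 1.22, adjusted p = 0.159 by edgeR). In libraries labelled IL1RL1-/-, RPMs were also higher in 4 of 4 mice, and its log2 fold change was 0.29 (−0.27 to 0.84, adjusted p = 0.415). With the mouse as a block, Ms4a7 was likewise not called in either genotype. For Ms4a4b, the log2 fold changes were −0.45 (−1.20 to 0.30) in WT and −0.60 (−1.44 to 0.25) in IL1RL1-/- labelled libraries, and the latter became −1.36 (adjusted p = 0.00376) without the RPM library of mouse 1.

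**Figure D2:**
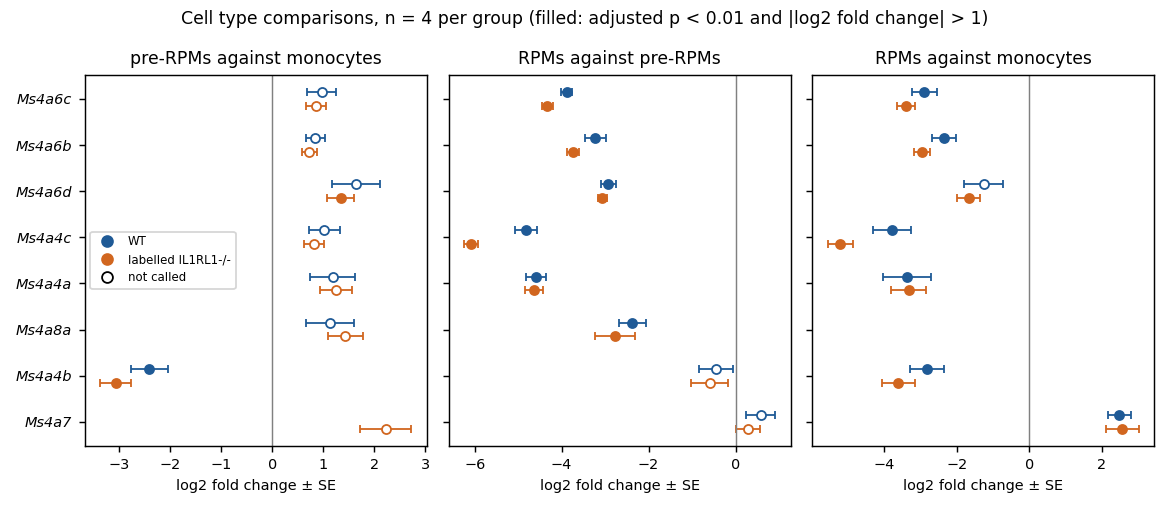
Log2 fold change ± SE of each member in the 3 cell type comparisons, from edgeR with 4 libraries per group, in WT (blue) and in libraries labelled IL1RL1-/- (orange); filled points were called (adjusted p under 0.01 and a log2 fold change beyond 1), and a member without a point did not pass the filter on low counts. In RPMs against pre-RPMs, 6 members lie between −2.37 and −6.08, and Ms4a4b and Ms4a7 lie near 0.

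Between monocytes and pre-RPMs, Ms4a4b fell in both genotypes, and the other members had higher values in pre-RPMs. Of these, only that of Ms4a6d in labelled libraries was called by the main fit, which has no term for the mouse. In WT mice, Ms4a4b was the only member called of 7 tested, against 3.57% of 11091 genes (3.25% lower and 0.316% higher), and in libraries labelled IL1RL1-/- Ms4a4b and Ms4a6d were called of 8 tested, against 4.85% of 11196 genes (3.88% lower and 0.974% higher). Ms4a4b was at 69.95, 69.7, 21.3, and 43.3 CPM in WT monocytes and at 6.75, 13.7, 7.85, and 10.5 in WT pre-RPMs, a log2 fold change of −2.41 (SE 0.36, adjusted p = 0.00167 by edgeR). In libraries labelled IL1RL1-/-, it was at 61.7, 45.4, 22.2, and 35.2 CPM in monocytes and at 5.68, 4.75, 3.27, and 5.41 in pre-RPMs, a log2 fold change of −3.07 (SE 0.31, adjusted p = 8.23e-05). No monocyte library overlapped a pre-RPM library of its genotype. The WT call was lost, with a fold change of like size, without the pre-RPM library of mouse 1 (−2.27, adjusted p = 0.0107) or mouse 4 (−2.45, adjusted p = 0.0104). Ms4a4b fell between the same groups in which Ms4a4c, its closest relative by sequence, was higher in pre-RPMs (1.02, SE 0.30, adjusted p = 0.0439 in WT).

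A further row of the files, Gm37387, starts 1700 bases past Ms4a4b on the same strand, and the later GENCODE M21 annotation of GRCm38 extends Ms4a4b to 11467055, over this row. Gm37387 also fell from monocytes to pre-RPMs, with log2 fold changes of −3.06 in WT (SE 0.59, adjusted p = 0.00746 by edgeR) and −4.02 in IL1RL1-/- labelled libraries (SE 0.43, adjusted p = 1.21e-04). Over the 24 libraries, its log2 CPM followed that of Ms4a4b with r = 0.95, across points that share libraries and depth.

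The 6 members of the pre-RPM-high pattern were 0.84 to 1.64 higher on the log2 scale in WT pre-RPMs than in WT monocytes, and 0.73 to 1.43 higher in libraries labelled IL1RL1-/-, but the spread between monocyte libraries was wide. Ms4a6d was at 13.6, 4.99, 50.02, and 29.2 CPM in WT monocytes and at 77.2, 65.4, 94.6, and 65.5 in WT pre-RPMs. The groups did not overlap, but the log2 fold change of 1.64 (SE 0.47) missed the threshold (adjusted p = 0.0398 by edgeR). In libraries labelled IL1RL1-/-, Ms4a6d was at 15.3, 19.3, 47.8, and 35.4 CPM in monocytes and at 74.0, 74.5, 77.7, and 72.0 in pre-RPMs, and its log2 fold change of 1.34 (SE 0.26, adjusted p = 0.00556) was called. That call was lost without the monocyte library of mouse 2 (1.17, adjusted p = 0.0230), without any 1 of the pre-RPM libraries (1.32 to 1.36, adjusted p from 0.0176 to 0.0217), and in 1 joint fit of the 24 libraries (1.33, adjusted p = 0.0136). With the mouse as a block, 4 members were called in libraries labelled IL1RL1-/-, Ms4a4a (1.33, adjusted p = 0.00309) and Ms4a7 (2.21, adjusted p = 0.00566) in addition, and 1 member in WT. Without the monocyte library of mouse 3, 6 members were called in WT and 5 in labelled libraries, of which Ms4a4b was lower in pre-RPMs. That library was the highest of its group for Ms4a4a, Ms4a4c, Ms4a6b, Ms4a6c, and Ms4a6d in both genotypes. A larger rise of these members therefore follows from leaving it out. The share of all genes called is not given for these settings. Ms4a7 (2.22, SE 0.50, adjusted p = 0.0108) was also called in labelled libraries without the monocyte library of mouse 1 (1.85, adjusted p = 0.00966) or mouse 4 (2.67, adjusted p = 0.00831). It could not be tested in WT, since it did not pass the filter. There it was at 0.764, 0.799, 1.15, and 1.20 CPM in WT monocytes, and all 4 WT pre-RPM libraries were higher (exact 2-sided permutation test of log2 CPM, p = 0.0286, the smallest that 4 against 4 allows).

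Monocyte libraries also differed in markers of other cells. NK cell markers summed to 1514, 1784, 534, and 986 CPM in monocytes of WT mice 1, 2, 3, and 4 and to 1473, 1104, 474, and 758 in those labelled IL1RL1-/-, so that mice 1 and 2 were highest in each. T cell markers summed to 91.0, 126, 44.97, and 67.9 CPM in the same WT libraries and to 116, 83.6, 41.3, and 48.8 in the labelled ones. Most of this sum was Lck, which NK cells also express (mean 71.1 CPM in WT and 58.4 in labelled monocytes), while Cd3e, Cd3d, Cd3g, and Trac averaged 1.70 to 2.97 in WT monocytes. B cell markers (67.2, 85.3, 19.3, and 31.8 CPM in WT, and 60.5, 59.5, 30.6, and 19.96 in labelled libraries) and basophil and mast cell markers (69.95, 56.5, 20.6, and 24.9 in WT, and 35.2, 26.9, 18.5, and 10.9 in labelled libraries) were also higher in mice 1 and 2, while monocyte markers had the opposite order of pairs, at 756, 583, 1381, and 1109.7 CPM and at 759, 955, 1533, and 1268. The monocyte sum does not set monocytes apart from RPMs, where it was 1368 to 1628 CPM in WT and 1550 to 1757 in labelled libraries. Csf1r alone averaged 1460 and 1614 CPM in those RPMs. Ms4a4b was higher in the monocytes of mice 1 and 2 than in those of mice 3 and 4 of the same genotype, as were the NK cell markers. Ms4a4a, at 7.33, 2.80, 25.2, and 14.8 CPM in WT monocytes and at 5.17, 11.8, 24.1, and 22.8 in the labelled ones, was lower in mice 1 and 2 in both genotypes, and so were Ms4a4c, Ms4a6b, Ms4a6c, and Ms4a6d. Neutrophil markers, at 268 to 781 CPM in monocytes and 97.2 to 212 in pre-RPMs, did not separate the same mice. The sort markers in the labels do not include NK1.1, whereas cells in the flow cytometry of the study were counted among NK1.1low cells, a gate that would remove NK cells, and whether it was used in this sort is not given in the sources used here. Without the monocyte libraries of mice 1 and 2, an alternative chosen after seeing the data, Ms4a4b was called lower in pre-RPMs (−1.77, adjusted p = 0.00121 in WT, and −2.56, adjusted p = 2.95e-06, in labelled libraries, by edgeR). The libraries left out were the highest for Ms4a4b, which fixes a smaller fall. NK cell markers in those kept, 534 and 986 CPM in WT and 474 and 758 in labelled libraries, still exceeded those of pre-RPMs. The latter were 65.2 to 133 CPM in WT and 12.9 to 48.0 in labelled libraries, so this setting cannot tell NK cell content apart from the fall. Under it, Ms4a6d was no longer called in labelled libraries (0.83). The values of Ms4a4a (0.52) and Ms4a6c (0.48) in WT were smaller, which the choice of libraries fixes, since those left out were the lowest for both. The part of RNA from other cells in these differences was not tested.

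**Figure D3:**
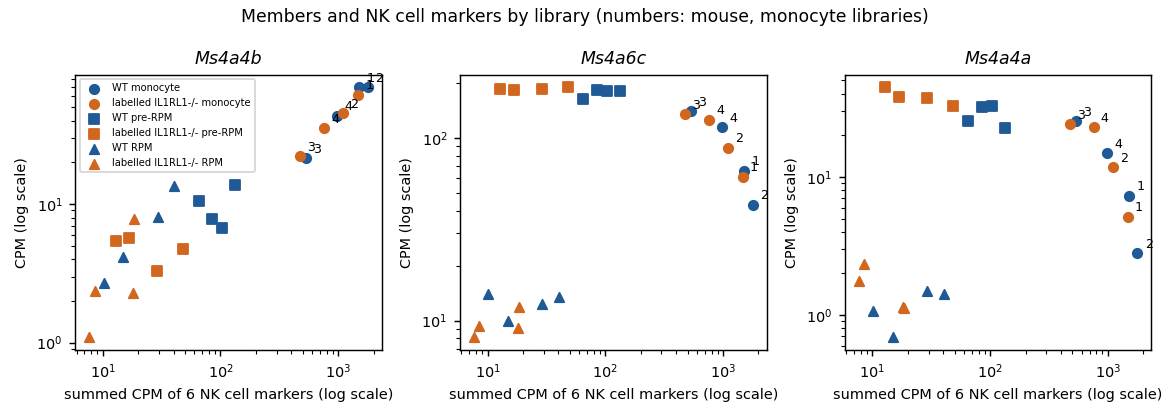
CPM of Ms4a4b, Ms4a6c, and Ms4a4a (vertical, log scale) against the summed CPM of 6 NK cell markers (horizontal, log scale) in the 24 libraries; circles are monocytes, squares pre-RPMs, and triangles RPMs, blue is WT, orange is labelled IL1RL1-/-, and numbers give the mouse of each monocyte library. Among monocyte libraries, Ms4a4b is highest and Ms4a6c and Ms4a4a are lowest where NK cell markers are highest (1104 to 1784 CPM, mice 1 and 2).

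Monocytes and RPMs, the ends of the path, differed in most members. In WT mice, 5 of 7 members tested were lower and 1 was higher in RPMs, against 10.5% of 11607 genes lower and 13.4% higher (23.9% called), and in libraries labelled IL1RL1-/- 6 of 7 were lower and 1 higher, against 11.6% and 14.3% of 11633 genes (25.9% called). Ms4a7 was the member that rose, to 4.48, 7.03, 4.39, and 6.18 CPM in labelled RPMs from 0, 0.841, 1.08, and 1.65 in labelled monocytes. Its log2 fold changes were 2.49 in WT (SE 0.31, adjusted p = 7.49e-05 by edgeR) and 2.57 in labelled libraries (SE 0.46, adjusted p = 5.11e-04), and every RPM library was above every monocyte library of its genotype. The members that fell had log2 fold changes, in WT and then in labelled libraries, of −3.79 (SE 0.51) and −5.22 (SE 0.34) for Ms4a4c, −3.39 (SE 0.66) and −3.33 (SE 0.48) for Ms4a4a, −2.90 (SE 0.34) and −3.41 (SE 0.25) for Ms4a6c, −2.83 (SE 0.47) and −3.62 (SE 0.45) for Ms4a4b, and −2.36 (SE 0.34) and −2.96 (SE 0.22) for Ms4a6b. Ms4a6d fell in labelled libraries (−1.67, SE 0.32, adjusted p = 8.49e-04), and its value in WT was −1.26 (SE 0.54, adjusted p = 0.0787), or −1.59 (adjusted p = 0.00552) without the WT monocyte library of mouse 2. Without the monocytes of mice 1 and 2, all 8 members were called in WT (Ms4a6d −1.95, adjusted p = 6.34e-05 by edgeR) and 7 of 8 in labelled libraries. This choice, made after seeing the data, left out the lowest monocyte libraries for Ms4a6d and Ms4a8a, so larger falls of these follow from it. The share of all genes called under it is not given. Without the WT RPM library of mouse 2, Ms4a4c was at −4.50, and without the labelled RPM library of mouse 1, Ms4a4b was at −4.37. Ms4a8a did not pass the filter, and its groups overlapped (exact 2-sided permutation test, p = 0.286 in WT and 0.114 in labelled libraries).

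Between genotypes, no member was called in any cell type at an adjusted p under 0.05 by edgeR, or by DESeq2. Monocytes had 0.0614% of 11405 genes called, while the share was 0.552% of 10698 for pre-RPMs and 0.233% of 11150 for RPMs. At an unadjusted p under 0.05, 0 of 7 members tested passed in monocytes, where 410 of all genes tested did, 2 of 8 in the pre-RPM comparison, with 941 of all genes, and 1 of 5 in that of RPMs, with 811 of all genes. The abundant Ms4a6c was within a narrow range in pre-RPMs, 164 to 183 CPM in WT and 183 to 190.1 in labelled libraries, with a log2 fold change of 0.07 (95% interval −0.10 to 0.23). The intervals of Ms4a4c (−0.11 to 0.26), Ms4a6b (−0.22 to 0.14), and Ms4a6d (−0.25 to 0.19) in pre-RPMs were a little wider, and in monocytes that of Ms4a6d ran from −0.87 to 1.43.

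The difference with the smallest adjusted p was that of Ms4a4b in pre-RPMs. It was at 6.75, 13.7, 7.85, and 10.5 CPM in WT and at 5.68, 4.75, 3.27, and 5.41 in labelled libraries, so that the groups did not overlap, and the log2 fold change was −0.99 (95% interval −1.48 to −0.49, adjusted p = 0.113 by edgeR). It was called when every gene with at least 1 count was tested (−0.97, adjusted p = 0.00836 by edgeR). That setting admits rows near 0 counts, and there Ms4a6d reached an adjusted p of 1.25e-20 from WT monocytes to pre-RPMs (1.64). Its adjusted p values are therefore not set beside those of the main fit. Ms4a4b was also called with the mouse number as a block (−1.01, adjusted p = 0.0480 by edgeR), although the labels do not pair mice between genotypes. In these pre-RPM libraries, NK cell markers summed to 103, 133, 84.6, and 65.2 CPM in WT and to 16.8, 48.0, 28.9, and 12.9 in labelled ones, T cell markers to 13.7 to 25.1 and 8.02 to 17.1, and B cell markers to 41.2 to 58.8 and 17.7 to 36.8. Of the NK cell markers, 3 of 4 tested were called lower, Ncr1 (−2.04, adjusted p = 0.00388), Prf1 (−2.03, adjusted p = 0.00762), and Gzma (−1.94, adjusted p = 0.0120), and so were 2 of 6 B cell markers, Ms4a1 (−1.40, adjusted p = 0.0383) and Pax5 (−1.25, adjusted p = 0.0383), and 0 of 3 T cell markers tested by edgeR. Of the T cell markers, Lck, which NK cells also express, differed most (mean 9.07 CPM in WT and 3.71 in labelled libraries). Cd3d, Cd3g, Trac, and Cd5 also had lower means in labelled libraries, with groups that overlapped. Only Cd3e did not, with means of 3.37 in WT and 3.51 in labelled libraries. The part of these cells in the lower value of Ms4a4b was not tested. Ms4a4a was at 32.7 to 44.7 CPM in labelled pre-RPMs and at 22.6 to 32.8 in WT (0.43, 95% interval 0.17 to 0.70, adjusted p = 0.271 by edgeR), with groups that overlapped. In RPMs, 3 members (Ms4a4a, Ms4a4c, and Ms4a8a) were below the filter, and exact 2-sided permutation tests gave p = 0.286, 0.143, and 0.314. The log2 fold changes of the 5 tested members in RPMs ran from −1.13 (Ms4a4b) to −0.03 (Ms4a7), and Ms4a6c (9.93 to 13.9 against 8.11 to 11.9 CPM) was the 1 member under an unadjusted p of 0.05, with an adjusted p of 0.683. The value of Ms4a4b was −0.60 without the WT RPM library of mouse 2 and −1.89 without the labelled RPM library of mouse 1. With every gene of at least 1 count tested, it was called (−1.10, adjusted p = 0.0123 by edgeR), with the same limit as above. Ms4a4b was at 8.04, 13.4, 2.67, and 4.16 CPM in WT RPMs and at 7.85, 2.29, 1.10, and 2.34 in labelled ones. T cell markers summed to 63.1, 73.7, 19.2, and 24.5 CPM and to 40.4, 21.9, 14.9, and 19.2. NK cell markers summed to 10.2 to 40.3 and 7.67 to 18.6, and B cell markers to 30.2 to 92.8 and 30.5 to 51.3. No T, NK, or B cell marker tested was called here, and the part of these cells in the value was not tested.

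Whether the changes themselves differed between genotypes was tested as an interaction. No member passed for the step from monocytes to pre-RPMs, for which 0% of 11960 genes were called and 454 had an unadjusted p under 0.05, or for the step from pre-RPMs to RPMs, for which 0.107% of 12150 genes were called. DESeq2 called 0 members in both. At an unadjusted p under 0.05, 0 and 2 of 8 members passed (914 of all genes tested did in the second step), the latter being Ms4a4c (−1.24, SE 0.44, adjusted p = 0.482 by edgeR) and Ms4a6c (−0.43, SE 0.17, adjusted p = 0.534). Over the 8 members, values lay between −1.24 and −0.03. When each library was left out in turn, those of Ms4a4b (−0.89 to 0.38), Ms4a4a (−0.27 to 0.13), and Ms4a6d (−0.24 to 0.04) changed sign, and that of Ms4a4c was −0.52 without the WT RPM library of mouse 2.

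Over the 24 libraries, the log2 CPM of the 6 members of the common pattern correlated with each other at r of 0.79 to 0.99. These values are descriptive, since the libraries share cell types, mice, and depth. Ms4a4c with Ms4a6c and Ms4a6b (both 0.99) were the closest pairs, closer than the pairs with the most similar coding sequences, Ms4a4b with Ms4a4c (0.44) and Ms4a6b with Ms4a6c (0.98). Ms4a4b and Ms4a7 ran in opposite directions (−0.84).

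**Figure D4:**
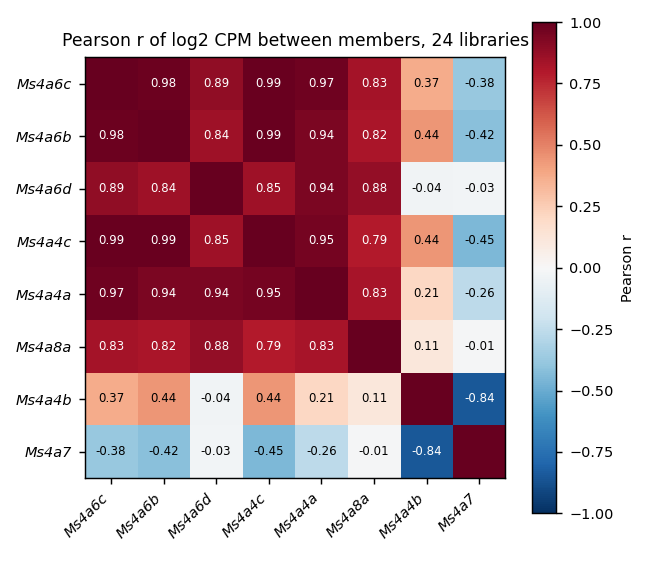
Pearson r between the log2 CPM of each pair of members over the 24 libraries, from −1 (blue) to 1 (red). The 6 members at the upper left have r of 0.79 to 0.99 with each other, and Ms4a4b with Ms4a7 has −0.84.

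Among the 11658 genes with a mean log2 CPM of at least 1, those with the highest r over the 24 libraries were Cybb, Bach1, and Msr1 for Ms4a4a (0.99 each), Arhgef10l, Lyz2, and Gm38399 for Ms4a4c (0.99 each), Clec7a, Plac8, and Lyz2 for Ms4a6b (0.99 each), and Il17ra, Slfn1, and Dgkg for Ms4a6c (0.99 each). For Ms4a8a they were Sirpb1c, Dusp3, and Dusp6 (0.91 to 0.94), for Ms4a7 Grk3, Pirb, and Vav3 (0.91 to 0.92), and for Ms4a4b 4930523C07Rik, Acap1, and Prkcq (0.97 to 0.98). Lyz2 was the only gene shared between these lists, those of Ms4a4c and Ms4a6b.

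Known partners of the family were examined next, as a list of 9 genes. From pre-RPMs to RPMs, 6 of the 9 passed the filter, and 0 rose and 2 fell in each genotype, namely Clec7a and Trem2, while Tyrobp (−0.94 in WT, SE 0.12, adjusted p = 1.15e-05 by edgeR, short of a log2 fold change of 1) and Fcer1g (0.05, SE 0.12), the signaling chains that many myeloid receptors use, were not called. Of all genes tested in this step, 10.7% in WT and 11.5% in labelled libraries fell, and 14.0% and 14.5% rose. Clec7a, which encodes dectin-1, went from between 196 and 225 CPM in WT pre-RPMs to between 4.01 and 10.4 in WT RPMs (−5.02, SE 0.21, adjusted p = 2.84e-10 by edgeR), the same direction as Ms4a4a. From monocytes to pre-RPMs, 7 of 9 passed the filter and 1 was called, Tnfrsf18 (GITR), which fell (−2.27 in WT, SE 0.36, adjusted p = 0.00233, and −3.22 in labelled libraries, SE 0.56, adjusted p = 0.00259, by edgeR), the same direction as Ms4a4b. Of all genes tested in that step, 3.25% in WT and 3.88% in labelled libraries fell, as did all 6 NK cell markers in each genotype. Vsig4 was at 0 to 1.06 CPM in the 24 libraries, no more than 5 counts in any.

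Of the other 11 Ms4a genes, 6 were at 3 counts or less in every library, and 2 of these (Ms4a12 and Ms4a5) were at 0 in all 24. Tmem176a and Tmem176b, relatives of the family on chromosome 6, had the pattern of the 6 members. Tmem176b was at 125, 82.7, 106, and 90.7 CPM in WT pre-RPMs and at 36.7, 28.4, 62.4, and 42.4 in WT monocytes, but at 5.93, 7.94, 1.34, and 2.08 in WT RPMs. Of these 13 genes, 4 in WT and 3 in labelled libraries were tested from monocytes to pre-RPMs and 3 in each from pre-RPMs to RPMs. Tmem176a and Tmem176b rose in the former step in both genotypes, where 0.316% and 0.974% of all genes did, and fell in the latter, where 10.7% and 11.5% did, and no other gene of the list was called.

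Reads of close relatives can be hard to place. Stretches of 50 bases, the read length, that occur on the same strand of another gene made up 10.5% of the distinct stretches of Ms4a6c, 8.19% of those of Ms4a4c, at most 3.57% of those of the other members, and 0 for Ms4a4a and Ms4a8a. Ms4a6c shared stretches with Ms4a6b, and Ms4a4c with Ms4a4b. On the opposite strand of another gene lay 49.6% of the stretches of Ms4a6c, over which BE692007 is annotated antisense, and the counting was strand-specific.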

How the data were processed

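RNA-seq counts were analysed in 24 of the study's 48 samples; the other 24, of chromatin accessibility, were not analysed here. Per the file headers, the authors deposited read counts per gene name made with featureCounts 1.6.2 from paired reads over exons, strand-specifically, on GRCm38 with Ensembl 95. Groups were taken from the labels. The members and gene lists were chosen with earlier results of these data known. Each pair of groups was fitted by itself with edgeR 4.0.16 (quasi-likelihood test, TMM scaling, filterByExpr; R 4.3.3), with Benjamini-Hochberg adjustment over all genes tested. For genotypes and interactions the threshold was an adjusted p of 0.05, and that for cell types is given above. The SE is the absolute log2 fold change divided by the square root of the F statistic of the test. The 95% intervals are 1.96 SE either side, a normal approximation that may be too narrow with 4 libraries per group. No main fit held a term for the mouse, since the study states no block. Members below the filter were compared by exact permutation tests of log2 CPM (prior count 2). The genes named were the members, the rest of the family, known partners, cell type markers where a result turned on them, and the 3 genes most like each member, those of Ms4a6d not being reported here; Gm37387 and BE692007 were chosen after their values were seen. Within a genotype, the mouse number marks the same animal per the labels, and deviations of its libraries correlated at −0.0392 to 0.365. Between genotypes, the labels state no pairing of mice. Same-numbered mice there correlated at 0.143 to 0.506 in monocytes, 0.182 to 0.223 in RPMs, and 0.0528 to 0.204 in pre-RPMs. Of 4 numbers, 2 in monocytes, 1 in RPMs, and 3 in pre-RPMs correlated best with their own. Whether the numbers pair mice between genotypes was therefore not settled. Alternatives were DESeq2 1.42.0, the mouse as a block, other filters, all 24 libraries in a single fit, each library left out, other scaling, and, chosen after seeing the data, no monocytes of mice 1 and 2. Gm42418 took 24.4% to 38.8% of the counts of a library. The fits were tested on simulated data first.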

Additional observations from a re-analysis of the deposited data

Results flagged for a closer look

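Ms4a6c in WT pre-RPMs was the only result with a library far from the rest of its group. The library of mouse 4 had 164 CPM (163.556), against 181 to 183 in the other 3, and the gap was 0.89 of the range of the group, above Dixon's 95% critical value for 4 values. Of 48 groups of 4 libraries examined, 1 was so marked, where chance gives about 5%.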

How the results depend on the processing

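Of 81 fold changes of members, none reversed a call: over the alternatives, 1187 values kept direction and side of the threshold, 32 newly passed, 9 no longer passed, and 47, none called, changed sign. With every gene of at least 1 count tested, 2 members were called between genotypes in pre-RPMs, 1 in RPMs, and from monocytes to pre-RPMs 6 in WT and 5 in labelled libraries. That setting admits rows near 0 counts and gave far smaller adjusted p values at like fold changes, such as 1.25e-20 by edgeR for Ms4a6d in this WT step (1.64). All 24 libraries in a single fit gave 4 in WT for that step, and DESeq2 gave 5 in labelled libraries. With at least 10 counts required in every library, fewer members were tested, and 3 were called in each comparison of RPMs with pre-RPMs or monocytes. The replicate block gave 4 from monocytes to pre-RPMs in labelled libraries, and 1 between genotypes in pre-RPMs (Ms4a4b, −1.01, adjusted p = 0.0480), where the numbers are shared labels only and 3 of 4 numbers correlated best with their own; it changed no other call count. Without the monocytes of mice 1 and 2, 1 member was called from monocytes to pre-RPMs in labelled libraries. With each library left out, the number called from monocytes to pre-RPMs ranged from 0 to 6 in WT and from 1 to 5 in labelled libraries. The causes were not tested. Scaling by totals without Gm42418 kept the direction of 68 of 72 log2 ratios, changed none by more than 0.297, and moved 35 of 48 group levels by more than 1 SD. The shift of levels follows in part from the smaller totals, since Gm42418 held 24.4% to 38.8% of the counts, and TMM factors were not applied there. Members with few counts, Ms4a7 and Ms4a8a, are limited by depth.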
